A study of Mus musculus with 6 samples.

Results

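The genes described here encode proteins of the primary cilium and proteins whose loss causes cystic kidney disease. They were taken by name from a list of 55 genes, of which 53 had a probe set assigned to 1 gene symbol, out of 19296 genes so measured; Arl6 and Arl13b were not analysed here. The list was sorted into 9 compartments by the known role of each protein. RNA came from ureteric bud cells, the branching epithelium that becomes the collecting ducts, sorted as YFP-positive cells from trypsin-treated mouse kidneys of E15.5 embryos (E, embryonic day). The tested cells carried Dicerc/-; Hoxb7Cre; Rosa26YFP: Hoxb7Cre is a Cre transgene of the ureteric bud that acts on the conditional Dicer allele, the second allele is null in every cell of the embryo, and Rosa26YFP marks cells with Cre activity. The control cells are labelled wild type. Since they too were sorted on YFP, some YFP reporter is implied, but the labels give neither a reporter nor Cre for them, and if they lacked Cre, effects of Cre and of the Dicer genotype cannot be told apart. Strain background was mixed in both groups. There were 3 arrays per group, called biological replicates, and the labels do not say how many embryos went into each.

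The primary cilium is a single antenna-like projection of the cell surface, built on a centriole and present on most tubule cells of the kidney. Trains of intraflagellar transport (IFT) proteins carry material along it: kinesin-2 pulls trains towards the tip with the IFT-B complex, and dynein-2 returns them with IFT-A. The BBSome carries membrane proteins on these trains, and a gate at the base, the transition zone, limits what enters and leaves. Polycystin-1 and fibrocystin lie in the ciliary membrane, and mutations in their genes, as in many genes of the cilium, lead to cysts of the collecting ducts and tubules. Dicer cuts miRNA precursors into mature miRNAs, and the comparison asked which transcripts of the ureteric bud differ when it is lost.

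The arrays were alike, with Pearson's r across probe sets of 0.996 to 0.998 within groups and 0.988 to 0.992 between them. Values are log2 RMA signals, where 1 unit is a 2-fold difference, and levels of different genes cannot be compared because their probes differ. Dicer1 read 9.80, 9.72 and 9.64 in the mutant arrays, against 10.31, 10.38 and 10.25 in the control arrays. The groups did not overlap, and the log2 fold change was -0.59 ± 0.06 (SE; limma adjusted p = 0.0005; two-sided exact permutation p = 0.1, the smallest that 3 arrays against 3 allow). Whether the probes lie inside the deleted part of the gene is not given, so the value does not count the cells that lost Dicer. All 14 ureteric bud markers, such as Ret, Cdh1 and Gata3, lay above the median brightness of the probe sets, a log2 value of 7.51. Of genes above that brightness 19.3% rose and 20.3% fell. Among the 14 markers 1 rose in the mutant cells (Wnt9b, log2 fold change 1.42), 6 fell and 7 did not pass. The falls were in Wnt11 (-0.60), Hoxb7 (-0.40), Ret (-0.35), Gata3 (-0.31), Krt8 (-0.25) and Calb1 (-0.24). Array medians of the 14 were 11.35 to 11.40 in mutant cells and 11.56 to 11.63 in control cells. Of 6 endothelial markers 0 passed, and of 4 markers of immune and red blood cells Ptprc fell (-0.45) and 3 did not pass. None of either list reached the median brightness. Of 10 markers of the cap mesenchyme, the nephron progenitors around the bud, 4 reached it, and their array medians were 7.15 to 7.18 in mutant cells and 6.90 to 6.99 in control cells. Within that list Six2 had 10.34 ± 0.06 in mutant cells and 7.05 ± 0.21 in control cells (SD, n = 3 each; adjusted p = 3.29e-06), Sall1 also rose and Osr1 fell. Of 13 markers of early nephrons and tubules, 5 were bright, 2 rose (Lrp2 by 1.05 on the log2 scale and Jag1 by 0.21) and 3 fell (Slc34a1, Pax8 and Hnf4a, with log2 fold changes of -0.69, -0.37 and -0.31). Their array medians were 6.91 to 7.05 in mutant cells and 7.01 to 7.46 in control cells. Of 9 stroma markers 3 were bright and 1 fell, Acta2 (-0.72). Of 12 genes of cell dissociation and the immediate early response, 8 fell past the threshold and 0 rose. Jun, Dusp1, Hspa1a and Atf3 did not pass, and Atf3 had a positive log2 fold change, 0.04. All 12 were bright, and among bright genes of the whole array 20.3% fell. The array medians of that list ran from 10.21 to 10.22 in mutant cells and from 10.46 to 10.96 in control cells. The part of these differences in the results below was not tested. In RNA from a bulk sort, fewer cells of a type and less RNA per cell cannot be told apart.

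Loss of Dicer was accompanied by changes in both directions among the cystic disease and cilium genes, small in most cases. At an adjusted p of 0.05 over all 19296 genes (limma), 15 of the 53 rose in the mutant cells, 11 fell and 27 did not pass. The 15 that rose make up 28.3% of the measured genes, against 11.8% of all genes and 19.3% of genes above the median brightness, where 48 of the 53 lay. The 11 that fell make up 20.8%, against 13.9% of all genes and 20.3% of the brighter ones, so the share of falls was close to that of the brighter genes. In all, 49.1% of the measured genes passed, against 25.8% of all genes and 39.6% of the brighter genes. The median log2 fold change was 0.04 over the 53 genes, -0.05 over all genes and -0.01 over the brighter genes. Arrays of the groups did not overlap for 39 of the 53 genes (73.6%), against 42.5% of all genes and 62.3% of the brighter genes. The list was chosen with earlier results of these data known, so these shares describe it and do not test it. Of 81 further genes of the same pathways, described below, 29.6% passed. Of the 26 genes past the threshold, 1 differed by at least 2-fold and 5 by at least 1.5-fold. The count of falls was 7 without mutant replicate 3, and 16 of the 26 calls held whichever single array was left out; the other 10 are named with the arrays that end them.

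**Figure D1:**
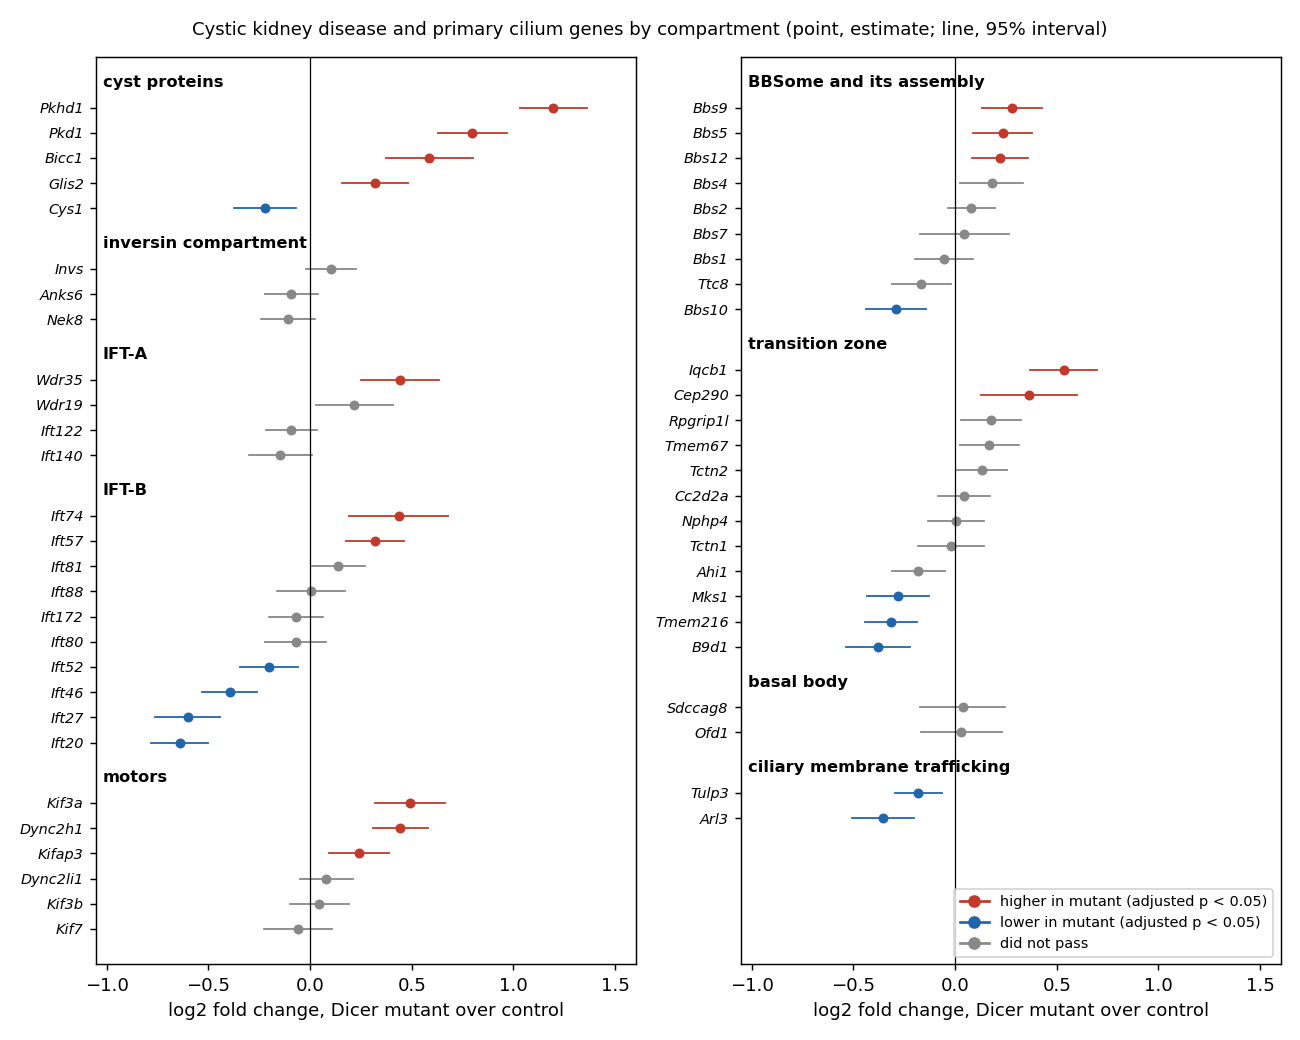
Log2 fold changes (x axis, Dicer mutant over control, with 95% intervals) of the 53 measured genes, grouped by compartment and sorted within it; red genes rose, blue genes fell and grey genes did not pass an adjusted p of 0.05 in limma. The cyst proteins Pkhd1 (1.20), Pkd1 (0.80) and Bicc1 (0.59) lie furthest to the right, the motors lie at or right of 0 except Kif7, and IFT-B genes spread to both sides, with Ift20 and Ift27 at -0.64 and -0.60.

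Among the 9 compartments the cyst proteins had the largest median log2 fold change, 0.59, and 4 of 5 rose and 1 fell. The compartments were set with earlier results of these data known. Invs, Nek8 and Anks6, also genes of cystic disease, were counted in another compartment, described below. All 5 cyst proteins were among the brighter genes, of which 19.3% rose and 20.3% fell. The 14 other cystic disease genes, described below, had a median log2 fold change of 0.02. Pkhd1 encodes fibrocystin, the protein of recessive polycystic kidney disease. It read 10.49, 10.55 and 10.54 in the mutant arrays, against 9.34, 9.44 and 9.21 in the control arrays. Every mutant array was more than 1 unit above every control array, and the log2 fold change of 1.20 (95% interval 1.03 to 1.36; adjusted p = 4.15e-05) was the highest of the 53 genes. Pkd1 encodes polycystin-1, the large membrane protein mutated in most families with dominant polycystic disease. Its values were 8.83, 9.01 and 8.93 in mutant cells, against 8.22, 8.14 and 8.02 in control cells, again without overlap. The log2 fold change was 0.80 (0.63 to 0.97; adjusted p = 0.000243), a 1.74-fold difference. Bicc1, an RNA-binding protein whose mutation gives mice polycystic kidneys, had 11.09, 11.12 and 11.14 in mutant cells, against 10.73, 10.51 and 10.35 in control cells. The mutant arrays were tightly grouped (SD 0.03) and the control arrays more spread (SD 0.19), and the log2 fold change of 0.59 passed the threshold (adjusted p = 0.00276). Glis2 is a zinc finger transcription factor of the nephronophthisis group. It rose 1.25-fold, with 10.59, 10.59 and 10.44 in mutant cells, against 10.16, 10.32 and 10.18 in control cells (adjusted p = 0.0121; 0.0524 without mutant replicate 1). Cys1 encodes cystin, the lipid-anchored cilium protein mutated in cpk mice, and it alone of the 5 fell. Its values were 7.66, 7.51 and 7.55 in mutant cells, against 7.81, 7.86 and 7.72 in control cells, a log2 fold change of -0.22 (adjusted p = 0.041). That call was lost without control replicate 1 or 2 or mutant replicate 2 or 3 (adjusted p up to 0.129), and under quantile normalization or median centring.

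Pkd1 is also a reported target of miRNAs of the miR-17 and miR-200 families in mouse kidney, work done outside these data. Their sequences are shown because both families depend on Dicer and bind mRNAs through the seed. The mature sequences from RefSeq (GRCm38.p6) are given 5′ to 3′ with the seed, bases 2 to 8, in capitals.
miR-17-5p: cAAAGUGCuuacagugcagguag
miR-20a-5p: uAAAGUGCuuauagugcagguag
miR-200b-3p: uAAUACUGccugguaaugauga
miR-200c-3p: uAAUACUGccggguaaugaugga
The first pair share the seed AAAGUGC and the second pair AAUACUG. Levels of the mature miRNAs were not measured in the data used here, and their part in the rise of Pkd1 was not tested. Tsc2, which lies next to Pkd1 in the genome and was named after its value was seen, did not pass (log2 fold change 0.03; adjusted p = 0.732).

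Inversin, Nek8 and Anks6 form an assembly in the lower part of the cilium, and mutations in each cause cystic disease. Here 0 of the 3 genes passed in limma (0 also at an unadjusted p of 0.05). Nek8, the kinase, had the lowest log2 fold change, -0.11, with 7.25 ± 0.03 in mutant cells and 7.36 ± 0.07 in control cells (SD, n = 3 each). Invs had the highest, 0.10 (95% interval -0.02 to 0.23), with 8.65 ± 0.03 in mutant cells and 8.55 ± 0.04 in control cells (SD, n = 3 each). The arrays of the groups did not overlap for any of the 3, which also held for 42.5% of all genes and 62.3% of the brighter genes.

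The motors of ciliary transport rose or did not pass. Of 6 genes, 3 rose, 0 fell and 3 did not pass, with a median log2 fold change of 0.16. All 6 were among the brighter genes, of which 19.3% rose and 20.3% fell. Kif3a, a motor subunit of kinesin-2 whose loss from kidney tubules removes cilia and gives cysts, read 8.43, 8.50 and 8.43 in mutant cells, against 7.81, 8.04 and 8.04 in control cells. Control replicate 1 was the lowest array, and the groups did not overlap. The rise was 1.41-fold (log2 fold change 0.49; adjusted p = 0.00247). Its partner motor subunit Kif3b, named after its values were seen, had 8.64 ± 0.03 in mutant cells and 8.59 ± 0.09 in control cells (SD, n = 3 each; log2 fold change 0.05, 95% interval -0.10 to 0.19). Kifap3, the non-motor subunit that joins the motor to cargo, rose 1.18-fold, with 9.53, 9.59 and 9.59 in mutant cells, against 9.23, 9.41 and 9.35 in control cells (adjusted p = 0.027). It did not pass without control replicate 1 or without any 1 of the 3 mutant arrays (adjusted p up to 0.0834). Dync2h1, the heavy chain of dynein-2, had 8.89, 8.98 and 8.84 in mutant cells, against 8.43, 8.50 and 8.45 in control cells. This was a clear separation, with a log2 fold change of 0.44 (adjusted p = 0.00126). Its light intermediate chain Dync2li1 did not pass (log2 fold change 0.08). Kif7, a kinesin of the ciliary tip that acts in Hedgehog signalling, had 2 probe sets, with log2 fold changes of -0.06 for the brighter (7.53 ± 0.05 in mutant cells and 7.59 ± 0.12 in control cells) and -0.14 for the dimmer (7.30 ± 0.11 in mutant cells and 7.44 ± 0.02 in control cells; SD, n = 3 each). The brighter did not pass, and the dimmer was not tested.

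**Figure D2:**
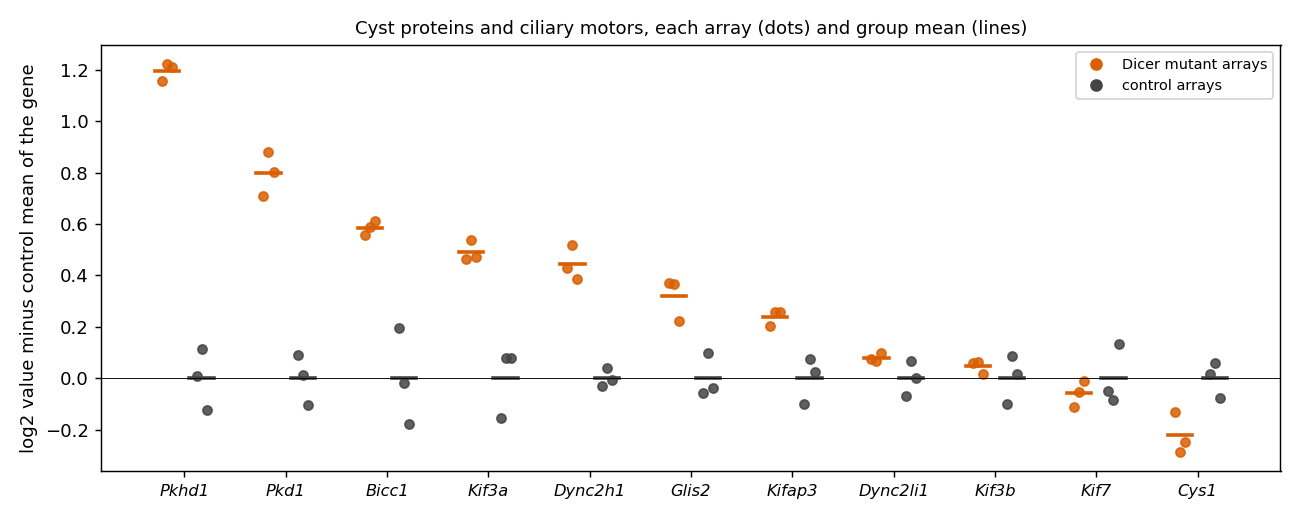
Each array (dots) and group mean (lines) for the 5 cyst proteins and 6 motors, as log2 value minus the control mean of the same gene (y axis), sorted by fold change, Dicer mutant in orange left of control in grey. Mutant and control dots are apart for all 5 cyst proteins and for Kif3a, Dync2h1 and Kifap3, and they overlap for Kif3b and Kif7.

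IFT-B, the complex of outward transport, held the deepest falls of the list. Of its 10 subunits 4 fell, 2 rose and 4 did not pass, with a median log2 fold change of -0.07. All 10 were among the brighter genes, of which 20.3% fell and 19.3% rose. Ift20, which also sits at the Golgi and brings membrane proteins towards the cilium, read 10.14, 10.15 and 10.05 in mutant cells, against 10.83, 10.73 and 10.71 in control cells. Replicates lay close together in both groups, and the log2 fold change of -0.64 (-0.78 to -0.50; adjusted p = 0.000257) was the lowest of the 53 genes. Ift27, a Rab-like GTPase needed for the BBSome to leave the cilium, was at 8.26, 8.44 and 8.39 in mutant cells, against 8.90, 8.96 and 9.05 in control cells. The linear signal fell by 34.1% and the groups did not overlap. Ift46, of the complex's core, had 9.37, 9.31 and 9.29 in mutant cells, against 9.66, 9.72 and 9.77 in control cells. The adjusted p was 0.000676 for Ift27 and 0.00193 for Ift46, whose log2 fold changes were -0.60 and -0.40. Ift52, another core subunit, fell less (log2 fold change -0.20; adjusted p = 0.0473), with 9.24, 9.27 and 9.27 in mutant cells, against 9.36, 9.52 and 9.51 in control cells. It did not pass when any 1 array except control replicate 1 was left out (adjusted p up to 0.146), nor with median centring.

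The IFT-B subunits that rose were Ift74 and Ift57. Ift74, which with Ift81 binds tubulin cargo, had 8.85, 8.74 and 8.67 in mutant cells, against 8.09, 8.38 and 8.49 in control cells (log2 fold change 0.44; adjusted p = 0.0186). Control replicate 1 was low, and the call was lost without mutant replicate 1 or 2 (adjusted p up to 0.0694). Ift57, of the peripheral part of the complex, had 8.35, 8.31 and 8.24 in mutant cells, against 7.91, 8.06 and 7.96 in control cells. Its 1.25-fold rise (adjusted p = 0.00738) also passed with each array left out (adjusted p up to 0.0367). Among subunits that did not pass, log2 fold changes ran from -0.07 for Ift80 to 0.14 for Ift81 (95% interval 0.01 to 0.27). Ift88, named after its values were seen and whose hypomorphic allele gives the Tg737 mouse with short cilia and cysts, was 8.66 ± 0.10 in mutant cells and 8.66 ± 0.09 in control cells (SD, n = 3 each). The 95% interval of its difference, -0.16 to 0.17, does not reach the size of the fall of Ift20.

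IFT-A, the complex of return transport, had 1 rise among 4 subunits and 3 that did not pass. All 4 were among the brighter genes, of which 19.3% rose. Wdr35 (IFT121) read 8.91, 9.09 and 8.94 in mutant cells, against 8.48, 8.68 and 8.44 in control cells. The highest control array lay below the lowest mutant array, and the log2 fold change was 0.44 (adjusted p = 0.00618). Wdr19 (IFT144) and Ift140 bounded the others, with 0.22 (95% interval 0.03 to 0.41; adjusted p = 0.0925) and -0.15 (-0.30 to 0.01; adjusted p = 0.153).

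**Figure D3:**
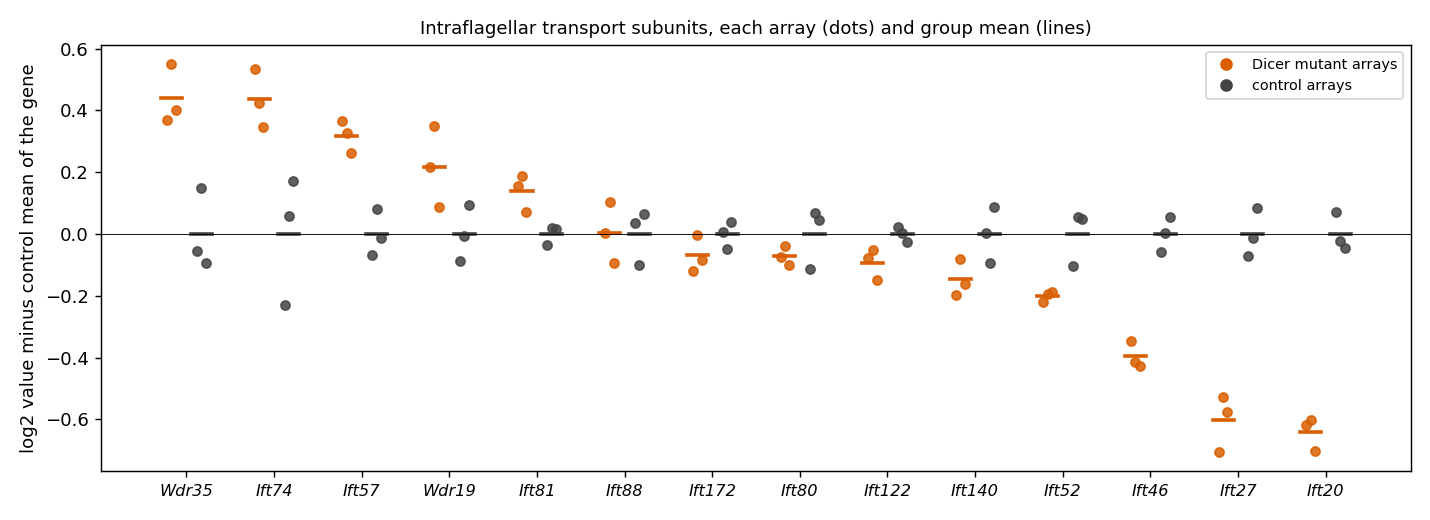
Each array (dots) and group mean (lines) for 10 IFT-B and 4 IFT-A subunits, as log2 value minus the control mean of the same gene (y axis), sorted by fold change, Dicer mutant in orange left of control in grey. Mutant arrays of Ift20, Ift27 and Ift46 lie below all control arrays, those of Wdr35, Ift74 and Ift57 lie above them, and those of Ift88 overlap the controls.

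Of 9 BBSome genes measured, 3 rose, 1 fell and 5 did not pass, and all log2 fold changes lay between -0.29 and 0.28. Without their sign, these changes had a median of 0.18, against 0.18 over the 53 genes, 0.13 over all genes and 0.17 over the brighter genes. Of all genes 25.8% passed, and of the brighter genes 39.6%. Bbs9, a subunit of the BBSome core, had 9.26, 9.37 and 9.20 in mutant cells, against 8.95, 9.04 and 8.99 in control cells (adjusted p = 0.0138). Bbs5, a lipid-binding subunit, had 7.84, 8.03 and 7.94 in mutant cells, against 7.69, 7.69 and 7.73 in control cells (adjusted p = 0.0291). Bbs9 passed with each array left out, whereas Bbs5 did not pass without control replicate 1 or 2 or mutant replicate 2 or 3 (adjusted p up to 0.0929). Bbs10 and Bbs12, chaperonin-like proteins that help to assemble the BBSome, went opposite ways. Bbs10 fell by 0.29 on the log2 scale, with 7.44, 7.29 and 7.36 in mutant cells, against 7.57, 7.69 and 7.70 in control cells (adjusted p = 0.0124). Bbs12 rose by 0.22, with 7.07, 6.99 and 6.99 in mutant cells, against 6.75, 6.77 and 6.88 in control cells (adjusted p = 0.0286). Both lay below the median brightness, and the rise of Bbs12 held only when control replicate 3 was the array left out (adjusted p up to 0.115 without any other). The 5 that did not pass ran from -0.17 for Ttc8 to 0.18 for Bbs4.

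At the transition zone, 2 of 12 genes rose, 3 fell and 7 did not pass, with a median log2 fold change of 0.03. Of the 12, 11 were among the brighter genes. Of all brighter genes 19.3% rose, 20.3% fell and 39.6% passed in either direction. The transition zone genes that rose were Iqcb1 and Cep290, whose proteins bind each other. Iqcb1 (nephrocystin-5) had 9.10, 9.15 and 9.17 in mutant cells, against 8.49, 8.61 and 8.72 in control cells. The groups were well apart, with a log2 fold change of 0.53 (adjusted p = 0.00131). Cep290, a long protein that spans membrane and microtubules at the gate, had 7.29, 7.22 and 7.07 in mutant cells, against 6.66, 6.80 and 7.03 in control cells. Its groups nearly touched (log2 fold change 0.36; adjusted p = 0.0337), and the call was lost without control replicate 1 or 2 or mutant replicate 1 or 2 (adjusted p up to 0.114).

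The 3 that fell, B9d1, Tmem216 and Mks1, belong to the Meckel syndrome (MKS) module of the gate. B9d1 had 8.71, 8.70 and 8.62 in mutant cells, against 9.11, 8.94 and 9.12 in control cells (log2 fold change -0.38; adjusted p = 0.00495). Tmem216, a membrane protein, had 7.85, 7.95 and 7.93 in mutant cells, against 8.23, 8.20 and 8.26 in control cells (log2 fold change -0.32; adjusted p = 0.00436). Both were separated by more than the spread of either group. Mks1, which shares the B9 domain with B9d1, had 8.01, 8.11 and 7.91 in mutant cells, against 8.30, 8.28 and 8.29 in control cells. Its log2 fold change was -0.28 (adjusted p = 0.0154), and it did not pass without mutant replicate 1 or 3 (adjusted p up to 0.0542). The other members of the module on the list did not pass: Ahi1 had a log2 fold change of -0.18 (adjusted p = 0.0513), Tctn1 -0.02, Cc2d2a 0.04, Tctn2 0.13 and Tmem67 0.17. Rpgrip1l, a scaffold of the gate, had the highest value among those that did not pass, 0.18 (adjusted p = 0.0791), and Nphp4 had 0.01. Of these 7, Tctn1, Cc2d2a, Tctn2, Tmem67 and Nphp4 were named after their values were seen.

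At the centriole, Ofd1 and Sdccag8 did not pass, with log2 fold changes of 0.03 (95% interval -0.17 to 0.23) and 0.04 (-0.17 to 0.25). Both measured genes of ciliary membrane delivery fell. They were among the brighter genes, of which 20.3% fell. Arl3, the GTPase that releases lipid-anchored cargo inside the cilium, had 9.53, 9.46 and 9.55 in mutant cells, against 9.81, 9.80 and 9.97 in control cells (log2 fold change -0.35; adjusted p = 0.00605). Tulp3, which brings receptors into the cilium together with IFT-A, had 9.34, 9.35 and 9.35 in mutant cells, against 9.52, 9.51 and 9.55 in control cells. Although the groups were tight and separate, its log2 fold change of -0.18 (adjusted p = 0.0325) did not pass when any 1 of the 6 arrays was left out (adjusted p up to 0.117), nor with median centring.

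Promoters were examined because many cilium genes carry an X-box, the binding site of RFX transcription factors, and because the genes moved in both directions. The X-box was searched as the half-site GTTNCC followed, after a spacer of 0 to 3 bases, by its inverted copy GGNAAC, a pattern that reads the same on both strands. The window ran from 250 bases before to 50 after the start in RefSeq (GRCm38.p6), and 46 of the 55 genes had a promoter there. A match was found in 5 of the 46 (10.9%), against 147 of 15160 array genes with a promoter (0.97%) and 0.804% of all 32851 promoter windows. The single half-site GTTGCC, on either strand and overlapping the X-box where both occur, was found in 18 of the 46 (39.1%), against 2125 of 15160 array genes and 12.5% of all windows. By call, the X-box was present in 2 of 24 genes past the threshold and in 3 of 20 that did not pass. The half-site was present in 8 of 24 and in 9 of 20, and the remaining match was in a gene not analysed on the arrays. Of the X-box genes, Ift57 rose, Mks1 fell, and Ahi1, Bbs7 and Tctn1 did not pass, so matches stood in genes of either direction. The matches are descriptions of letters and not of binding.

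The 5 matches are shown 5′ to 3′ on the strand of the gene with the X-box in capitals. For Ift57 (chromosome 16, plus strand), Mks1 (chromosome 11, plus strand) and Bbs7 (chromosome 3, minus strand) the stretch is the 150 bases before the start, and for Ahi1 (chromosome 10, plus strand) and Tctn1 (chromosome 5, minus strand), where the match lies after the start, it is 30 bases.
Ift57: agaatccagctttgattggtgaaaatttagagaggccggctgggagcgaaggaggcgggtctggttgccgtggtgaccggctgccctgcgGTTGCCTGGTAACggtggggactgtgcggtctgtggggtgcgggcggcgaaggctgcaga
Mks1: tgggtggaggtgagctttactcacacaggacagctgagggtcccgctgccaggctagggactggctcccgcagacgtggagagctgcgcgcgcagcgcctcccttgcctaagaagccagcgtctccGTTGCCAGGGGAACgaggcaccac
Bbs7: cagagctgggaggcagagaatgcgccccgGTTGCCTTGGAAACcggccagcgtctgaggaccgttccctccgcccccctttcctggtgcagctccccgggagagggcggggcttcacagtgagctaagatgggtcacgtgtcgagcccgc
Ahi1: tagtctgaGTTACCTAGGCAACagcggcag
Tctn1: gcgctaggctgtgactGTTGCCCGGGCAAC
The X-box begins at base -60 in Ift57, -24 in Mks1, -121 in Bbs7, 22 in Ahi1 and 37 in Tctn1, counted from the start. The Ift57 match is 13 bases long and the others 14.

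**Figure D4:**
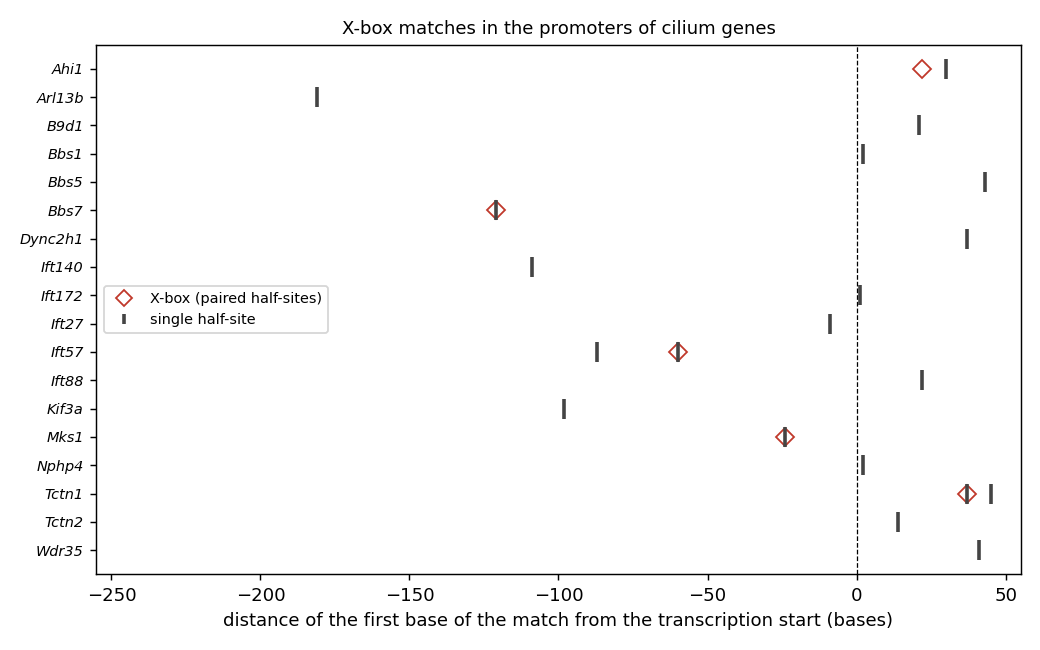
Position of the first base of each match (x axis, bases from the transcription start, dashed line) in the 18 genes with a half-site, 1 gene per row; diamonds are X-boxes and bars half-sites, also those inside an X-box. Most matches lie within 50 bases of the start, and those furthest before it are in Arl13b at -181 and Bbs7 at -121.

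Among the RFX factors, Rfx2 and Rfx4 fell, with log2 fold changes of -0.25 and -0.29 (adjusted p = 0.0117 and 0.0162), and Rfx5 rose by 0.31 (adjusted p = 0.0199). Rfx4 lay far below the median brightness, with 5.11 ± 0.10 in mutant cells and 5.40 ± 0.06 in control cells (SD, n = 3 each). Of the 8 genes of that list the other 5 did not pass, including Rfx3, a regulator of ciliary genes in mice, at 0.01, and Foxj1, the regulator of motile cilia, at -0.16, both named after their values were seen. Among 17 markers of multiciliated cells 1 rose, 3 fell and 13 did not pass, and 16 of the 17 lay below the median brightness. The bright marker, Myb, was 1 of those that fell (log2 fold change -0.77). Of all genes 25.8% passed.

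Of other genes of the same pathways, 81 were measured under 98 listed names, some of which are second names of the same gene. Of the 81, 14 rose, 10 fell and 57 did not pass, with a median log2 fold change of 0.02, and 68 lay above the median brightness. The 24 that passed make up 29.6%, near the 25.8% of all genes and below the 39.6% of the brighter genes. Pkd2 was not analysed here. Among 14 genes listed as other cystic disease genes 3 rose and 2 fell; the list held the kinase Oxsr1, which is not a cyst gene, and without it 2 of 13 rose. Those with the smallest p were the mucin Muc1, which fell (log2 fold change -0.46), Dzip1l, a transition zone gene of recessive polycystic disease, which rose (0.25), and Oxsr1, which rose (0.22). Of 8 other nephronophthisis genes 2 rose, Dcdc2a by 0.60 (10.64 ± 0.04 in mutant cells and 10.04 ± 0.10 in control cells; SD, n = 3 each; adjusted p = 0.000522) and Mapkbp1 by 0.29.

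Among 9 further IFT subunits only Ift22, a small GTPase of IFT-B, passed, and it fell (-0.36; adjusted p = 0.00608). Further motor genes gave 2 rises and 1 fall among 7: Kif3c, a kinesin-2 motor subunit related to Kif3b, rose by 0.56 (8.24 ± 0.06 in mutant cells and 7.68 ± 0.06 in control cells; SD, n = 3 each; adjusted p = 0.000517), the dynein-2 chain Wdr60 rose by 0.30, and the dynein light chain Dynlrb1 fell by 0.21. Centriole and distal appendage genes gave 3 rises and 0 falls among 12, with Cep120, of centriole elongation, at 0.70 (9.50 ± 0.01 in mutant cells and 8.80 ± 0.05 in control cells; SD, n = 3 each; adjusted p = 0.000124), Cep97, which holds back cilium formation with Ccp110, at 0.47, and the kinase Ttbk2, which starts it, at 0.21. Ciliary membrane genes moved both ways, with 2 rises and 3 falls among 11. Adcy3, an adenylyl cyclase of primary cilia, rose 1.88-fold (9.15 ± 0.12 in mutant cells and 8.24 ± 0.08 in control cells; SD, n = 3 each; adjusted p = 0.000169), while the GTPase Rab8a (-0.38) and its activator Rab3ip (-0.24), which carry vesicles to the cilium, fell. Of 11 further transition zone genes Cep41 rose (0.28) and Tmem218 fell (-0.28), and 0 of 3 further BBSome genes passed. These values for genes outside the list of 55 come from the fit of all 6 arrays only.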

How the data were processed

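Expression was measured in 6 samples of sorted mouse ureteric bud cells on Affymetrix whole-transcript arrays. The deposited values are log2 RMA values per probe set and array; RMA and affy are named in the submitters' processing notes, without a version, and no build or filter was found in the sources used here. RMA scales arrays to one another, so a shift shared by most transcripts would be removed. Of 23309 probe sets, 20728 had 1 symbol in the platform annotation; for each of 19296 genes the probe set with the highest mean was kept. The table gives no detection call, so "brighter" means a mean above 7.51, the median of all probe sets. No coordinates of array probes are printed, since no build is named.

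Genotype was the only term of the linear model across all genes (limma 3.58.1, R 4.3.3; 3.93 prior degrees of freedom), with Benjamini-Hochberg adjustment, two-sided, at 0.05. The fit was tested on simulated arrays. No array shared more than 22 values with another; the labels call the replicates biological without naming animals, so the p-values rest on the spread among the 3 arrays of a group. The number of arrays limits the precision. Members, compartments and lists were chosen with earlier results of these data known. All members past the threshold were named, with the lowest and highest others of each compartment and, from each other list, up to 3 past the threshold by smallest p. Same-numbered arrays of the groups did not deviate together (r = -0.19, -0.10 and -0.22 across genes), so replicate numbers were not used as pairs. Alternatives were a block for the replicate number, omission of each array, quantile normalization or centring on the median, omission of dim genes (a mean at or below that median in both groups), averaged probe sets, a variance trend, weighted arrays and a threshold of 0.01.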

Additional observations from a re-analysis of the deposited data

How the results depend on the processing

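Of the 26 genes past the threshold, 16 kept their call in all 13 alternative fits: Pkd1, Pkhd1, Bicc1, Wdr35, Ift20, Ift27, Ift46, Ift57, Kif3a, Dync2h1, Bbs9, Bbs10, Tmem216, B9d1, Iqcb1 and Arl3. None of the 26 changed direction in any of them, though Bbs12 and Cep290 are absent from the fit without dim genes. Leaving out 1 array gave 10 to 15 genes higher and 7 to 9 lower (7 without mutant replicate 3), 3460 to 5130 of all genes past the threshold, and a median log2 fold change of 0.02 to 0.07 over the listed genes. With the replicate number as a block, 10 rose and 8 fell, with 3603 of all genes past the threshold. The log2 fold changes were the same with and without the block. Whether same-numbered arrays were paired is not given in the labels. At a threshold of 0.01, 8 rose and 6 fell, with 2790 of all genes past it. The fit without dim genes kept the 9934 genes with a mean above the median brightness in at least 1 group. It thus tests fewer genes, of which 2530 rose and 2733 fell, a larger share than in the main fit. There 8 further listed genes passed, among them Ahi1, Ttc8 and Wdr19. Median centring put the median of all genes at -0.02 in place of -0.05; 16 listed genes then rose and 8 fell, and of all genes 2696 rose and 2241 fell, so that rises outnumbered falls, unlike the 2285 and 2690 reported. With 3 arrays per group, changes of dim genes are the least well measured.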

Other observations

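Hedgehog signalling passes through the primary cilium in vertebrates, and its genes were looked at after the other values were seen. Ptch1 and Gli1 fell in the mutant cells, with log2 fold changes of -0.36 and -0.35 (limma adjusted p = 0.00274 and 0.00424). Ptch1 had 9.48 ± 0.05 in mutant cells and 9.84 ± 0.04 in control cells (SD, n = 3 each). Gli1 had 6.80 ± 0.03 in mutant cells and 7.15 ± 0.08 in control cells (SD, n = 3 each). Gli3, a transcription factor of the pathway processed at the cilium, rose by 0.22 (adjusted p = 0.0258). Smo (0.07), Sufu (-0.11), Gli2 (-0.17) and Hhip (-0.11) did not pass, and Gli1 and Hhip lay below the median brightness. Of all genes 25.8% passed, and of the brighter genes 39.6%.

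The genes next to the 26 that passed were also read. Of 50 measured protein-coding neighbours in the RefSeq order (GRCm38.p6), 7 passed in the direction of the cilium or cyst gene, 5 in the other direction and 38 did not pass, so 24.0% passed, close to the 25.8% of all genes. Both neighbours of Tulp3 (-0.18) fell, Tead4 with a log2 fold change of -0.44 and Rhno1 with -0.42. Bbs5 (0.23) lies beside Lrp2, which rose by 1.05 (adjusted p = 0.000256). Neither neighbour of Pkhd1, Pkd1, Ift27 or Ift46 passed.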
